A study of Mus musculus with 18 samples.

Results

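The effect of losing ATP-citrate lyase (ACLY) in mouse T helper 17 (Th17) cells was measured with acetate present on both sides: 3 libraries of acetate-treated ACLY-deficient cells were compared with 3 libraries of acetate-treated wild-type cells, out of the 18 libraries of the series. The labels give the ACLY-deficient cells the genotype Acly-fl/fl Cd4-cre, in which Cre under the Cd4 promoter removes the floxed gene during T cell development, and call the controls wild type. They do not say that the controls carry Cd4-cre. Naive CD4+ T cells were stimulated through CD3 and CD28 with Th17-polarizing cytokines for 48 h, kept with acetate for 24 h and restimulated for 5 h with PMA and ionomycin with brefeldin A and monensin. The protocols give the acetate dose as 20 mM and the series text gives 10 mM. The background label is C57BL/6 for the 3 wild-type libraries and for ACLY-deficient replicate 3, but C57BL/9 and C57BL/11 for ACLY-deficient replicates 1 and 2. Without acetate it is C57BL/6 for the 3 wild-type libraries and C57BL/8, C57BL/10 and C57BL/12 for ACLY-deficient replicates 1, 2 and 3. No label states that replicates came from separate mice or cultures, and the spread behind the p-values may therefore be technical. The same genotypes without acetate, 3 libraries each, served to ask whether the effect of ACLY loss differed. Of 45703 genes in the table, 14229 had a level of at least 1 TPM (a transcript abundance corrected for gene length and scaled to the same total in every library) in at least 3 of the 18 libraries and were tested on log2(TPM + 1).

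ACLY splits citrate exported from mitochondria into oxaloacetate and acetyl-CoA, the building block of fatty acids and sterols and the acetyl donor for histones in the nucleus and cytosol. Acetyl-CoA can also be made from acetate by the synthetase ACSS2, so added acetate offers a route around ACLY. Th17 cells are CD4+ T cells that make interleukins 17A and 17F and are maintained through the interleukin-23 receptor.

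The 6 libraries held 18843807 to 30101756 reads assigned to genes, and 1 read in a gene of 2000 exonic bases corresponded to 0.0342 to 0.058 TPM. ACLY-deficient replicate 1 stood apart from its 2 partners: its 36 cytosolic ribosomal protein genes summed to 74895 TPM, against 104053 to 120432 TPM in the other 5 libraries, and its T cell cytokine genes summed to 15004 TPM, against 22522 to 25586 TPM. Counts are therefore also given without this library. Untreated replicate 1 was the lowest of its group for the ribosomal sum as well. It was at 80310 TPM in wild-type, against 122084 and 120458 TPM, and at 40200 TPM in ACLY-deficient cells, against 88507 and 105481 TPM. Acetate-treated wild-type replicate 1 was not the lowest of its group. All 7 defining Th17 markers were detected in every library, including Cd4 at 223 to 388 TPM. Markers of other cells were low but not all equal between genotypes. The 18 myeloid and dendritic markers summed to 6.10 to 7.78 TPM in wild-type and 13.2 to 18.1 TPM in ACLY-deficient libraries, with C1qa, C1qb, C1qc, Fcgr1 and Siglech at 0 in all 6, and Batf3 was the 1 of 5 tested members that was higher. The 10 B cell markers summed to 21.8 to 26.1 TPM and 28.8 to 35.5 TPM, and Cd79b was the 1 of 3 tested members that was higher. The 10 natural killer and gamma-delta T cell markers summed to 7.12 to 9.57 TPM and 22.05 to 24.8 TPM, and 3 of 6 tested members were higher, namely Trdc, Klrk1 and Trgc2, but 1 of 6 after median-ratio scaling and 1 of 6 with limma-voom on recovered reads. The calls of Klrk1 and Trgc2 were lost without any 1 of the 3 ACLY-deficient libraries or without wild-type replicate 3 (limma adjusted p = 0.0657 to 0.154), that of Klrk1 also without wild-type replicate 2 and that of Trgc2 without wild-type replicate 1. In bulk RNA a change in the share of cells of a type and a change in RNA per cell cannot be told apart.

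With acetate present, 1925 genes differed by genotype at an adjusted p under 0.05 (limma, Benjamini-Hochberg over all 14229 genes), which is 13.5% of the genes tested and is what passing the test, rising or falling means from here on. Of these, 1643 (11.5%) were higher and 282 (1.98%) lower in ACLY-deficient cells, and 692 had a log2 change of 1 or more in either direction. The excess of rises depended in part on the scale, since the median gene was 0.16 higher on the log2(TPM + 1) scale in ACLY-deficient cells. After median-ratio scaling, which moved that median to -0.02, 1034 genes rose (7.27%) and 635 fell (4.46%), so the share of rises went from 85.4% to 62.0%. Without ACLY-deficient replicate 1 the count was 1120, and without wild-type replicate 1 or 2 it was 1273 or 1152.

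The targeted gene separated the groups in every library. Acly (Gene ID 104112, chromosome 11 from 100476352 to 100528000 on the minus strand, GRCm38.p6) stood at 461, 457 and 421 TPM in the wild-type libraries and at 11.0, 12.8 and 11.7 TPM in the ACLY-deficient ones, a log2 change of -5.12 ± 0.22 (SE, n = 3 and 3; limma adjusted p = 7.46e-09). The mean level was 37.6 times higher in wild-type cells. Among 20 tested genes of acetyl-CoA supply, 5 rose and Acly fell, against 11.5% and 1.98% of all genes. The count of rises was 2 without ACLY-deficient replicate 1 or wild-type replicate 1, 3 without wild-type replicate 2 or 3, and 2 after median-ratio scaling (against 7.27% of all genes), where 2 genes fell. Acss2, the acetate-using synthetase of the cytosol and nucleus, was at 3.26, 3.76 and 3.52 TPM in wild-type and 8.27, 7.20 and 7.32 TPM in ACLY-deficient libraries, 2.16-fold higher with no overlap (limma adjusted p = 0.00468). Its mitochondrial relative Acss1 was at 0.865 to 1.77 TPM and 2.39 to 2.55 TPM (limma adjusted p = 0.0123, but 0.072 without wild-type replicate 1 and 0.0509 after median-ratio scaling). Idh2, the mitochondrial NADP-dependent isocitrate dehydrogenase, was 1.99-fold higher (limma adjusted p = 0.0113, and 0.0559 without ACLY-deficient replicate 1).

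Genes of the cell division cycle rose together. All 26 tested G2 and M phase genes and 28 of 32 S phase genes rose, against 11.5% of all genes, with list medians of 2.31 and 1.39 on the log2 scale. After median-ratio scaling 25 and 25 rose, and without ACLY-deficient replicate 1 the counts were 20 and 21. In all 26 and all 32 the 3 ACLY-deficient libraries lay above the 3 wild-type ones, an arrangement found in 38.9% of all tested genes.

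Among G2 and M phase genes, Cdk1, the kinase that drives entry into mitosis, was at 10.9, 8.88 and 20.3 TPM in wild-type and 49.0, 47.8 and 50.2 TPM in ACLY-deficient libraries (log2 change 1.88 ± 0.31, limma adjusted p = 0.00102). The 3 ACLY-deficient values were close together, while wild-type replicate 3 was the highest of its group. Ndc80, an outer kinetochore component that binds spindle microtubules, was at 5.70, 4.77 and 10.2 TPM against 89.3, 40.8 and 50.7 TPM, an 8.76-fold difference (limma adjusted p = 0.000269). The mitotic motor gene Kif11 was at 10.4, 8.56 and 20.1 TPM against 123, 62.5 and 77.9 TPM, with replicate 1 of the ACLY-deficient group the highest. Top2a, which untangles DNA before chromosomes separate, was at 45.3, 36.8 and 72.9 TPM against 450, 217 and 252 TPM. Ccna2, Ccnb1, Plk1, Aurkb, Bub1, Nusap1 and Ube2c, which encode mitotic cyclins, kinases, a spindle protein and the ubiquitin-conjugating enzyme of mitotic exit, were 3.62-fold (Ube2c) to 8.27-fold (Nusap1) higher. The proliferation marker Mki67 was at 7.65, 7.74 and 14.6 TPM against 164, 45.6 and 61.2 TPM. Its call (limma adjusted p = 0.0131) did not hold without ACLY-deficient replicate 1 (0.0802) or wild-type replicate 1 or 2 (0.0535 and 0.0569).

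Genes of this phase are known for a short promoter element, the cell cycle homology region (CHR). TTTGAA on either strand was found in the 300-base RefSeq window around the start of 17 of 22 G2 and M phase genes with such a window (77.3%), against 14.6% of 9360 tested genes with one. This motif was searched after the cell cycle genes were seen to rise, and a match describes letters, not binding. Stretches of 3 such promoters are shown, capitals marking TTTGAA or its reverse complement (RefSeq, GRCm38.p6: Kif11 chr19:37376338-37376381 plus strand, Mki67 chr7:135716447-135716520 minus strand, Cdk1 chr10:69352913-69353008 minus strand).
Kif11: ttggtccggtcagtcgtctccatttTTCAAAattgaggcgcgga
Mki67: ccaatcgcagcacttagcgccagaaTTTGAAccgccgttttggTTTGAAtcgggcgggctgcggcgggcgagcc
Cdk1: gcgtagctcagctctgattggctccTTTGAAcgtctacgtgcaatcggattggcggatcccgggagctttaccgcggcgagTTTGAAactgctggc

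Among S phase genes, Cdc6, which loads the replicative helicase, was at 7.24, 5.58 and 10.9 TPM in wild-type and 31.7, 21.05 and 24.1 TPM in ACLY-deficient libraries (log2 change 1.602 ± 0.24, limma adjusted p = 0.000632). Mcm5, a subunit of that helicase, was at 50.1, 41.1 and 64.7 TPM against 195, 113 and 127 TPM (limma adjusted p = 0.00543). Both genes were without overlap between genotypes. Cdc45, the helicase cofactor, and Pole, the catalytic subunit of leading-strand polymerase, were 5.38-fold and 4.98-fold higher. Tyms, the enzyme that makes thymidylate, was 3.91-fold higher. Pcna, the sliding clamp, moved least of those named, from 213 to 266 TPM to 364 to 402 TPM (1.62-fold). E2F factors are the known activators of many S phase genes, and the E2F-like letters TTTNNCGC were found on either strand in the window of 11 of 25 S phase genes (44.0%), against 9.97% of tested genes. In the 2 stretches shown (Cdc6 chr11:98907988-98908045 plus strand, Mcm5 chr8:75109331-75109392 plus strand) capitals mark them, and in Mcm5 a match on each strand overlaps the other.
Cdc6: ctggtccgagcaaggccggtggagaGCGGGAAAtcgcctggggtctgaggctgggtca
Mcm5: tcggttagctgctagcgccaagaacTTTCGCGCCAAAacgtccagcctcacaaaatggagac

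Without acetate, ACLY loss was accompanied by rises in 27 of 32 S phase and 11 of 26 G2 and M phase genes, against 12.7% of all genes. The difference between the 2 changes was tested directly, as the log2 change with acetate minus that without. In this test no gene of the 2 lists passed in limma, 6 G2 and M phase genes and 2 S phase genes had an unadjusted p under 0.05, and limma-voom on recovered reads called none. Plk1 changed by 2.42 with acetate and 0.20 without, Ube2c by 1.86 and -0.22, and their differences of 2.23 and 2.07 did not pass (limma adjusted p = 0.199 and 0.133). The larger G2 and M phase count with acetate is therefore not shown to be a difference.

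**Figure D1:**
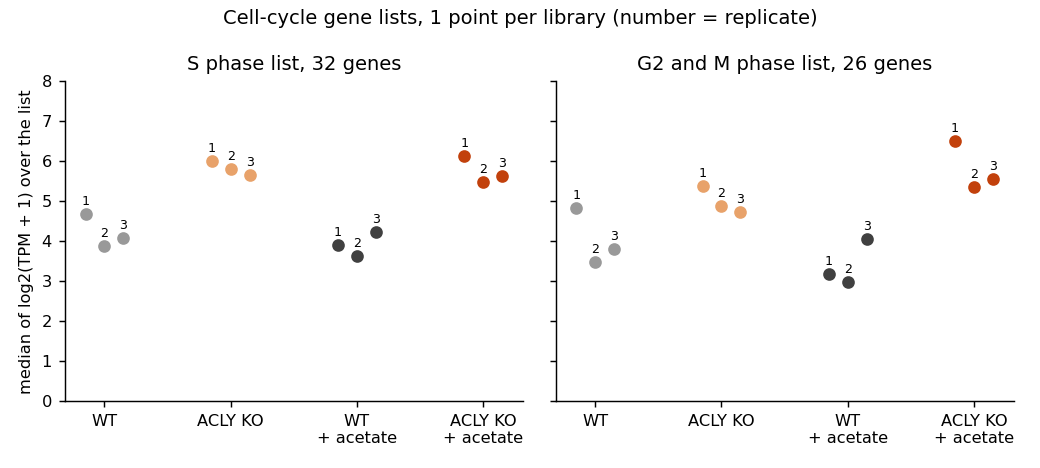
Median log2(TPM + 1) over the S phase list (left, 32 genes) and the G2 and M phase list (right, 26 genes), 1 point per library with its replicate number, for wild-type (WT) and ACLY-deficient (ACLY KO) cells without and with acetate. With acetate the G2 and M phase medians were 2.99 to 4.06 in wild-type and 5.36 to 6.51 in ACLY-deficient libraries, and the S phase medians 3.62 to 4.23 and 5.48 to 6.14.

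Targets of the stress-activated factor p53, many of which restrain division or promote death, leaned the other way. Of 20 tested targets 5 fell, against 1.98% of all genes, and the list median was -0.45, or 10 and -0.61 after median-ratio scaling. Trp53inp1, a p53-induced nuclear protein that promotes cell death, was at 278, 282 and 250 TPM in wild-type and 114, 149 and 145 TPM in ACLY-deficient libraries (limma adjusted p = 0.00487). Ei24 was at 80.8 to 86.5 TPM and 42.5 to 52.8 TPM, and Ccng1 at 293 to 311 TPM and 190 to 215 TPM (limma adjusted p = 0.00614 and 0.00537). The 2 best-known targets did not pass. Cdkn1a, the p21 inhibitor of cyclin-dependent kinases, was at 562, 563 and 488 TPM against 220, 304 and 290 TPM (limma adjusted p = 0.0568, or 0.0143 after median-ratio scaling), and Mdm2 at 67.4 to 76.5 TPM against 52.1 to 68.4 TPM. The count was 3 without ACLY-deficient replicate 1 or 3 or wild-type replicate 1 or 3.

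Signature Th17 cytokine genes fell. Of 29 tested T cell cytokine genes, 8 fell and 2 rose, against 1.98% and 11.5% of all genes. The count of rises was 3 without ACLY-deficient replicate 1 and 1 without any other of the 6 libraries. The 8 were Il17a, Il17f, Il21, Il22, Il24, Il3, Csf2 and Lif. Il17f (chromosome 1 from 20777146 to 20785274) was at 1814, 1467 and 1822 TPM in wild-type and 293, 299 and 354 TPM in ACLY-deficient libraries, 5.39-fold lower (log2 change -2.43 ± 0.22, limma adjusted p = 1.36e-05). Its neighbour Il17a was at 2111, 1458 and 1807 TPM against 544, 662 and 744 TPM, 2.76-fold lower. The 2 groups did not overlap for either gene. The Il17a call (limma adjusted p = 0.0216) was lost without wild-type replicate 1 (0.0867) or 3 (0.0635) or ACLY-deficient replicate 1 (0.0933), whereas that of Il17f was kept in every library left out.

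Il23r, the receptor chain that sustains Th17 cells, was at 23.6, 24.4 and 26.3 TPM in wild-type and 3.14, 3.62 and 4.33 TPM in ACLY-deficient libraries (log2 change -2.46 ± 0.15, limma adjusted p = 1.82e-07). Il22, which acts on epithelia, fell from 8.96, 5.95 and 10.2 TPM to 0.428, 1.30 and 0.847 TPM (limma adjusted p = 0.000585). Il3, a growth factor of blood cell precursors and mast cells, fell from 255, 208 and 212 TPM to 13.2, 46.5 and 40.5 TPM (limma adjusted p = 0.000232), with ACLY-deficient replicate 1 the lowest. Lif, of the interleukin-6 family, was 2.45-fold lower and Il24 3.19-fold lower. Il21 stood at 2468, 2262 and 2091 TPM against 1224, 1304 and 1396 TPM, and Csf2, encoding GM-CSF, at 507, 453 and 349 TPM against 137, 267 and 265 TPM. The calls of Il21 and Csf2 (limma adjusted p = 0.0201 and 0.0248) were each lost without wild-type replicate 1 (0.0819 and 0.106), wild-type replicate 2 (0.0659 and 0.0892) or ACLY-deficient replicate 1 (0.0795 and 0.137). The count of cytokine genes that fell was 5 without ACLY-deficient replicate 1 or wild-type replicate 1.

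Not all cytokines followed. Il9, the cytokine of Th9 cells, was at 9.30, 4.60 and 5.88 TPM in wild-type and 64.6, 62.1 and 59.1 TPM in ACLY-deficient libraries, 9.39-fold higher (limma adjusted p = 5.58e-06). Il2, the T cell growth factor, was at 12627, 13570 and 11619 TPM against 7955, 17081 and 15881 TPM and overlapped between genotypes (limma adjusted p = 0.958). Tnf overlapped as well, at 1330 to 1584 TPM against 1169 to 1836 TPM. Ifng, the Th1 cytokine, was at 176, 137 and 113 TPM against 218, 372 and 363 TPM and did not pass (limma adjusted p = 0.0533, and 0.0478 without ACLY-deficient replicate 1). Il10, an anti-inflammatory cytokine, was at 342 to 442 TPM against 194 to 299 TPM (limma adjusted p = 0.177).

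**Figure D2:**
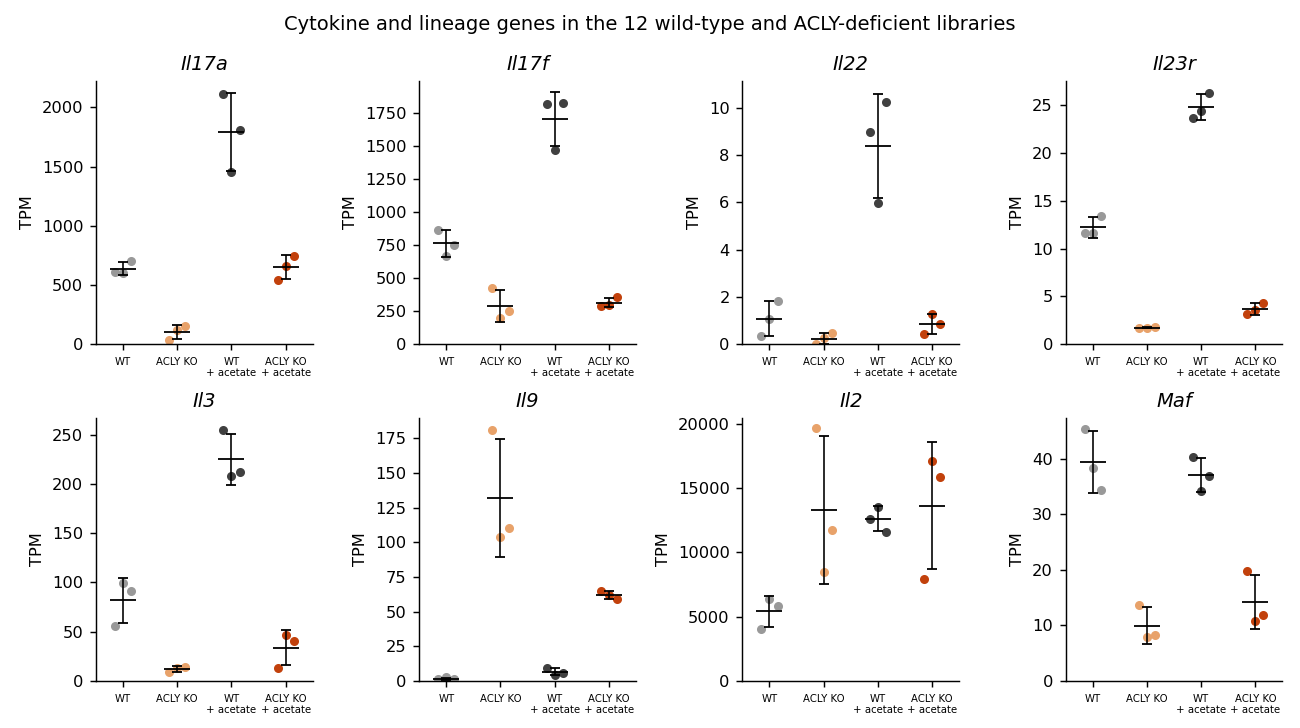
TPM of 8 genes in wild-type (WT) and ACLY-deficient (ACLY KO) libraries without and with acetate, 1 point per library in replicate order from left to right, with the mean (dash) and SD (bars) of 3 libraries; each axis starts at 0. With acetate, Il17a, Il17f, Il22, Il23r, Il3 and Maf lay lower and Il9 higher in all 3 ACLY-deficient libraries, while Il2 overlapped.

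Of 24 tested Th17 lineage genes, 4 rose and 3 fell, against 11.5% and 1.98% of all genes, and 2 rose without ACLY-deficient replicate 1. The share of rises was thus near that of all genes. Maf, a transcription factor that promotes Il10 and Il21, was at 40.3, 34.2 and 36.8 TPM in wild-type and 19.8, 10.8 and 11.9 TPM in ACLY-deficient libraries (limma adjusted p = 0.000987). The leukotriene B4 receptor gene Ltb4r1 fell from 11.8 to 18.01 TPM to 5.33 to 7.80 TPM. Ahr, the ligand-activated factor needed for Il22 in many settings, rose from 9.83, 10.5 and 10.0 TPM to 33.8, 21.97 and 22.9 TPM (limma adjusted p = 0.000246), although Il22 itself fell. Cd5l, known as a marker of less pathogenic Th17 cells, was 4.44-fold higher, at 49.0 to 66.9 TPM against 231 to 272 TPM. Bhlhe40, a factor needed for GM-CSF production, was 1.58-fold higher (limma adjusted p = 0.0101, and 0.0587 without ACLY-deficient replicate 1).

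Of 17 tested Th1 and cytotoxic genes, 7 rose and 1 fell, against 11.5% and 1.98% of all genes, or 4 and 1 after median-ratio scaling, against 7.27% and 4.46%. With limma-voom 5 of the 17 passed. The number that rose was 5 without ACLY-deficient replicate 1 or wild-type replicate 1, and 4 without any other of the 6 libraries. The 2 chains of the interleukin-18 receptor rose together: Il18r1 from 4.11, 2.98 and 4.04 TPM to 21.5, 18 and 21.4 TPM, and Il18rap from 4.81, 5.32 and 5.87 TPM to 27.6, 24.4 and 30.3 TPM (limma adjusted p = 2.63e-05 and 1.38e-05). Gzmc, a granzyme, was 4.10-fold higher. Tbx21, encoding the Th1 master factor T-bet, was at 17.5 to 22.3 TPM against 20.8 to 25.8 TPM (limma adjusted p = 0.525). Some natural killer and gamma-delta T cell markers moved with this group: Trdc, the delta chain constant region, was at 3.75, 3.04 and 3.47 TPM against 8.74, 12.6 and 10.5 TPM (limma adjusted p = 0.00862, but 0.0688 in limma-voom on recovered reads). Others of that list overlapped between genotypes, such as Klra1 (0.574 to 0.678 against 0.527 to 0.709 TPM) and Zbtb16 (0.363 to 0.668 against 0.417 to 0.727 TPM). The part of such cells in the rise was not tested.

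Among chemokines, Ccl3 rose from 899, 769 and 744 TPM to 1510, 1955 and 2031 TPM (limma adjusted p = 0.000744) and Ccl22 from at most 0.26 TPM to 2.16, 5.63 and 5.06 TPM (limma adjusted p = 0.000116). Cxcl3, a neutrophil attractant, fell from 78.2 to 84.8 TPM to 25.5 to 36.9 TPM (limma adjusted p = 0.00681). S1pr1, the receptor for exit from lymphoid tissue, was 2.10-fold higher. Ctla4, an inhibitory receptor, fell from 1394, 1239 and 1221 TPM to 758, 866 and 831 TPM (limma adjusted p = 0.00985, and 0.0523 without wild-type replicate 1). Trat1, an adaptor of the T cell receptor complex, was 5.20-fold higher. Foxp3, the regulatory T cell factor, stayed at 0.62 to 1.99 TPM across the 6 libraries (limma adjusted p = 0.326), and Nrp1 was 2.29-fold higher.

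Genes of sterol synthesis and of unsaturated fatty acids rose in part, with acetate on both sides. Of 26 tested genes of cholesterol synthesis and uptake, 7 rose, against 11.5% of all genes (6 after median-ratio scaling, against 7.27%, and 6 without ACLY-deficient replicate 1). The list median was 0.52, against 0.16 for all genes. The lanosterol demethylase gene Cyp51 was at 25.2, 24.0 and 27.7 TPM in wild-type and 54.0, 49.1 and 47.9 TPM in ACLY-deficient libraries (log2 change 0.95 ± 0.13, limma adjusted p = 0.000323). Idi1 and Nsdhl, enzymes of the same pathway, were 1.84-fold and 1.90-fold higher (Idi1 did not pass after a correction for GC content and length, limma adjusted p = 0.0801). Stard4, a sterol carrier, was 1.68-fold higher (limma adjusted p = 0.0112), a call lost without wild-type replicate 2 (0.0613), with limma-voom (0.125) and after the correction for GC content and length (0.344). Of 16 tested genes of fatty acid synthesis and desaturation 4 rose, against 11.5% of all genes, among them Elovl5 (2.25-fold), Fads1 (2.31-fold) and Fads2 (1.95, 2.34 and 2.23 TPM against 13.4, 7.39 and 7.30 TPM), which act in one route to polyunsaturated fatty acids. The letters TCACNCCAC of the sterol response element, on either strand, were found in the window of 1 of 19 cholesterol genes, against 1.30% of tested genes. Without acetate 9 of the cholesterol genes rose and 1 fell, against 12.7% and 6.38% of all genes, and the difference between the 2 changes of Cyp51 was 0.03 (limma adjusted p = 0.976).

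Type I interferon response genes rose less with ACLY loss when acetate was present. These genes are induced through the type I interferon receptor, many of them by way of the interferon-stimulated response element (ISRE) in their promoters. With acetate 9 of 33 tested genes rose, against 11.5% of all genes (6 after median-ratio scaling, against 7.27%, and 8 without ACLY-deficient replicate 1), with a list median of 0.47. Without acetate 26 of the same 33 rose, against 12.7% of all genes, with a median of 1.44. The wild-type level of the list was itself higher with acetate. Summed over the 33 genes, wild-type libraries were at 231 to 280 TPM without and 389 to 416 TPM with acetate. ACLY-deficient libraries were at 650 to 1094 TPM without and 541 to 868 TPM with acetate. The difference between the changes passed the test for 12 of 33, all with a smaller change when acetate was present, against 0.562% of all genes with a lower change. With limma-voom on recovered reads the count was 7. The filter counted all 18 libraries, so a gene could be tested through the untreated ACLY-deficient group alone. For such genes a smaller change with acetate is partly set in advance, and so are these counts. With at least 5 TPM asked in at least 3 libraries, Ifit1, Ifi44, Rsad2, Oasl2 and Xaf1 were not tested. Irf7, Isg20, Zbp1 and Slfn1 were, and their differences passed. This filter counted all 18 libraries too. Among wild-type and ACLY-deficient libraries, Irf7 reached 5 TPM only in the untreated ACLY-deficient ones, so its smaller change is still partly set in advance.

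The genes varied in what remained with acetate, and some passed both tests. Irf7, the amplifier of interferon production, was at 9.71, 21.1 and 16.8 TPM in untreated ACLY-deficient libraries and at 0.757, 1.604 and 0.779 TPM with acetate, while wild-type libraries stood at 0.047 to 0.0735 TPM without and 0.0975 to 0.304 TPM with acetate. The difference in log2 change was -3.21 (limma adjusted p = 9.85e-05). The remaining rise of Irf7 with acetate (limma adjusted p = 0.0396) was lost without any 1 of the 6 libraries (0.0558 to 0.150). Ifit1, an inhibitor of foreign RNA, was at 4.87, 4.44 and 3.55 TPM in untreated ACLY-deficient cells but at 0.222, 0.224 and 0.132 TPM with acetate, beside a wild-type range of 0.156 to 0.214 TPM (limma adjusted p = 0.936). Ifnb1, encoding interferon beta, was at 2.41, 3.11 and 3.31 TPM in untreated ACLY-deficient libraries and, with acetate, at 0, 0.0959 and 0 TPM, with 0 in all 6 wild-type libraries. Among these libraries Ifnb1 reached 1 TPM only in the untreated ACLY-deficient group, so its smaller change is partly set in advance. With at least 5 TPM asked in at least 3 libraries it was not tested. Ifi44, Isg20, Rsad2, Oasl2, Xaf1 and Slfn1 also passed the test of the difference, by -1.28 (Xaf1) to -2.49 (Isg20), and none of these 6 passed with acetate on log2(TPM + 1) (the lowest limma adjusted p was 0.368, of Rsad2). That depended on the scale for 2 genes of very low level: with a pseudocount of 0.1 Rsad2 and Xaf1 were higher with acetate (log2 changes 1.18 and 1.25, limma adjusted p = 0.0418 and 0.0291), as in limma-voom (0.00548 and 0.00324). In limma-voom the differences of Ifi44, Rsad2 and Oasl2 did not pass (adjusted p = 0.108, 0.187 and 0.106).

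Other members kept a rise with acetate present, which need not have been as large as that without. Trim30a was at 8.26, 8.11 and 5.45 TPM in wild-type and 19.3, 22.7 and 19.9 TPM in ACLY-deficient libraries (log2 change 1.40 ± 0.18, limma adjusted p = 0.000185). Ifih1, the RNA sensor MDA5, was at 10.4, 9.83 and 11.5 TPM against 49.2, 40.4 and 40.6 TPM (limma adjusted p = 0.00022). Oas1a, a synthetase activated by double-stranded RNA, was at 0.141 to 0.204 TPM against 1.07, 6.53 and 3.69 TPM (limma adjusted p = 0.00667). Zbp1 and Phf11b rose on the TPM scale (limma adjusted p = 0.00681 and 0.00455) but not after median-ratio scaling (0.0613 and 0.154). Zbp1 also passed the test of the difference (-1.93), so its rise was smaller with acetate than without. Isg15, a ubiquitin-like modifier, was at 7.11, 8.33 and 8.50 TPM against 10.1, 66.4 and 42.6 TPM, with replicate 1 far below its partners (limma adjusted p = 0.0859, or 0.0194 without that library). Ifi211 of the p200 family of DNA sensors was 5.78-fold and the GTPase gene Tgtp2 2.23-fold higher. The differences of Trim30a, Isg15 and Ifi211 did not pass with all libraries. Without untreated ACLY-deficient replicate 1 they did (-1.07, -3.22 and -1.52, limma adjusted p = 0.0439, 0.0403 and 0.00792). Oas1a, Ifi211 and Tgtp2 have near-identical copies, so reads may have been split among relatives.

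The ISRE letters, taken as GAAA and GAAA with any 2 bases between and searched on either strand, were found in the window of 15 of 26 interferon response genes (57.7%), against 3.85% of tested genes. They were found for 5 of 7 genes that rose with acetate and 2 of 10 whose change was smaller with acetate. These are not 2 exclusive groups, since Irf7 and Zbp1 passed both tests. The 2 matches among the 10 are Ifit1 and Rsad2, both shown here. Stretches of 4 promoters are shown, from a gene at wild-type levels with acetate (Ifit1), 1 that did not pass on log2(TPM + 1) (Rsad2) and 2 that remained higher (Trim30a, Oas1a), with the motif in capitals (Ifit1 chr19:34640760-34640838 plus strand, Rsad2 chr12:26456538-26456597 minus strand, Trim30a chr7:104465195-104465254 minus strand, Oas1a chr5:120907526-120907570 minus strand). In Oas1a 2 matches overlap, and in the other 3 the match lies on the strand opposite to the one printed and reads there as TTTC, 2 bases and TTTC.
Ifit1: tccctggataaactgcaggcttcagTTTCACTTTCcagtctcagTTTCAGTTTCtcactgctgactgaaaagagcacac
Rsad2: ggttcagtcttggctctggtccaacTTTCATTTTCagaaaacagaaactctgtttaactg
Trim30a: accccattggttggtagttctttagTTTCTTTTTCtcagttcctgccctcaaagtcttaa
Oas1a: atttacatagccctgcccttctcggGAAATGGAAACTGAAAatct

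**Figure D3:**
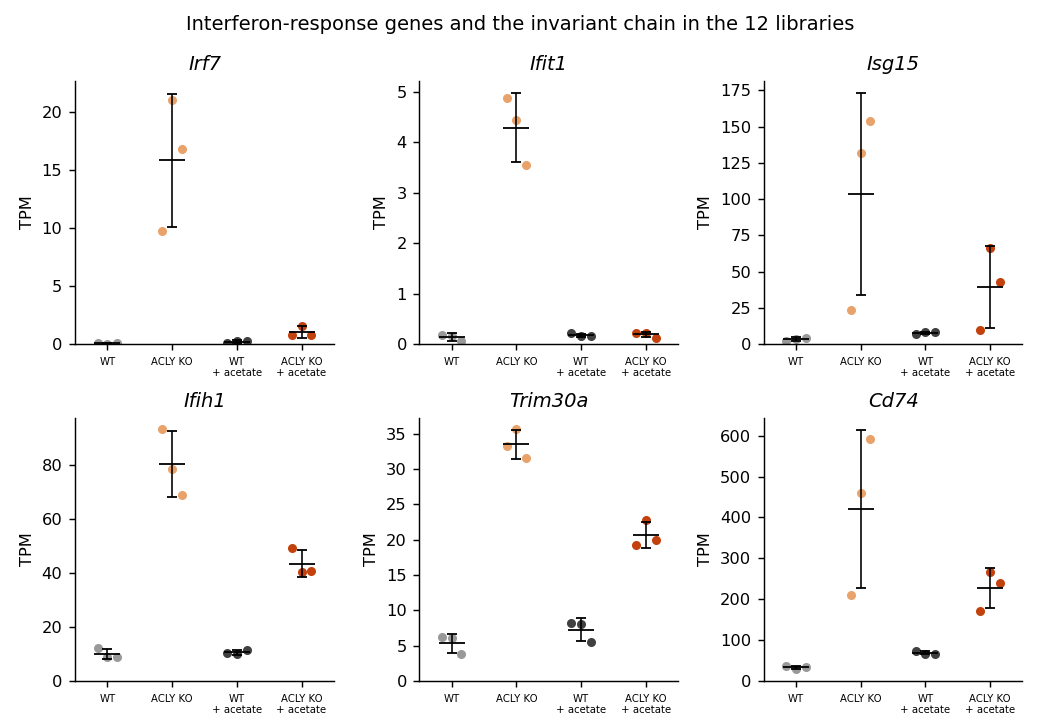
TPM of 5 interferon-response genes and Cd74 in wild-type (WT) and ACLY-deficient (ACLY KO) libraries without and with acetate, 1 point per library in replicate order, with mean (dash) and SD (bars) of 3; axes start at 0. Irf7 and Ifit1 were far lower with acetate than without in ACLY-deficient cells, while Ifih1, Trim30a and Cd74 lay above wild type in both conditions.

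Of the tested genes of MHC class II presentation, all but H2-Ab1 had a positive log2 change. The list median was 0.58, against 0.16 for all genes. Cd74, the invariant chain, was at 74.1, 67.0 and 66.1 TPM in wild-type and 172, 267 and 240 TPM in ACLY-deficient libraries (log2 change 1.68 ± 0.32, limma adjusted p = 0.00312). H2-Ab1, a class II beta chain, was at 47.1, 50.6 and 49.3 TPM against 21.4, 26.9 and 24.1 TPM (log2 change -0.997 ± 0.20, limma adjusted p = 0.00408). H2-DMb2, which helps load peptides, was 3.04-fold higher. Of 9 tested class II genes 3 rose and 1 fell, against 11.5% and 1.98% of all genes. The loss of H2-Ab1 was smaller with acetate than without, where it was at 30.7 to 38.1 TPM in wild-type and 2.18 to 3.83 TPM in ACLY-deficient libraries (difference 2.15, limma adjusted p = 0.00172). Cd74 had no such call with all libraries, but its difference passed without untreated ACLY-deficient replicate 1 (-2.25, limma adjusted p = 0.003355). B cell and myeloid marker sums, given above, were also higher in the ACLY-deficient libraries, and the part of such cells in these changes was not tested.

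Upp1 and Plin2 were among the metabolic genes that fell. Upp1, the uridine phosphorylase, was at 79.2, 59.6 and 54.2 TPM in wild-type and 8.92, 10.1 and 11.6 TPM in ACLY-deficient libraries (log2 change -2.53 ± 0.26, limma adjusted p = 3.89e-05). Plin2, a coat protein of lipid droplets, was at 39.5, 42.7 and 42.1 TPM against 17.3, 18.2 and 16.7 TPM (limma adjusted p = 0.00141). Of 22 tested targets of hypoxia-inducible factor, most of them outside glycolysis, 6 fell and 3 rose, against 1.98% and 11.5% of all genes. The list also held Aldoc and Pfkfb4 of the glycolysis list, and Aldoc, counted again below, was 1 of the 6. Without ACLY-deficient replicate 1 or wild-type replicate 2 only 3 fell. The 3 rises were lost without ACLY-deficient replicate 1, and 1 was left without wild-type replicate 3. Bnip3, a mitophagy receptor, was at 29.6, 38.4 and 37.4 TPM against 7.33, 15.6 and 12.5 TPM, and Ndrg1 at 319, 336 and 251 TPM against 133, 148 and 151 TPM (limma adjusted p = 0.00642 and 0.00019). Slc2a3, the glucose transporter GLUT3, was at 29.6 to 32.6 TPM against 16.6 to 24.8 TPM and did not pass (limma adjusted p = 0.204). Creld2 and Pdia4, of protein folding in the endoplasmic reticulum, were 1.70-fold and 1.82-fold higher (Pdia4 did not pass after median-ratio scaling, adjusted p = 0.0602 in limma), and 3 of 22 genes of the unfolded protein response rose, a share near the 11.5% of all genes. Hat1, a histone acetyltransferase of new histones, and Hdac6, a mostly cytosolic deacetylase, were 1.78-fold and 2.27-fold higher. They were among 3 of 28 tested genes of histone acetylation that rose, a share near the 11.5% of all genes. After median-ratio scaling 2 of the 28 rose, near the 7.27% of all genes. H2az1, a histone variant, was 2.29-fold higher and was the 1 of 21 tested histone genes that rose, with a list median of -0.04.

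Among genes with a group mean of at least 5 TPM, the largest rise was that of Serpinc1, encoding antithrombin, at 1.18, 1.05 and 1.05 TPM in wild-type and 42.8, 72.9 and 59.96 TPM in ACLY-deficient libraries (log2 change 4.80 ± 0.37, limma adjusted p = 3.04e-06). The adhesion molecule gene Vcam1 rose from 0.198 to 0.388 TPM to 8.02 to 11.5 TPM, and Olfml2a from 0.369 to 0.509 TPM to 7.60 to 9.64 TPM. S100a4, a calcium-binding protein of motile cells, was at 20.9 to 35.6 TPM against 173 to 238 TPM. The cytokinesis scaffold gene Iqgap3 was 11.8-fold higher. Among the largest falls, the alcohol dehydrogenase gene Adh1 went from 17.1, 18.3 and 19.5 TPM to 1.25, 2.11 and 1.90 TPM and Selenbp1 from 11.9 to 18.3 TPM to 1.39 to 1.65 TPM. The matrix proteoglycan gene Lum was 6.46-fold, the laminin-binding integrin gene Itga7 7.30-fold and the ubiquitin ligase gene Mid1 5.48-fold lower. Mmp13, a collagenase, was at 107, 84.4 and 74.1 TPM against 16.7, 18.6 and 22.8 TPM (limma adjusted p = 0.0146, but 0.0619 without wild-type replicate 1 and 0.0627 without ACLY-deficient replicate 1).

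**Figure D4:**
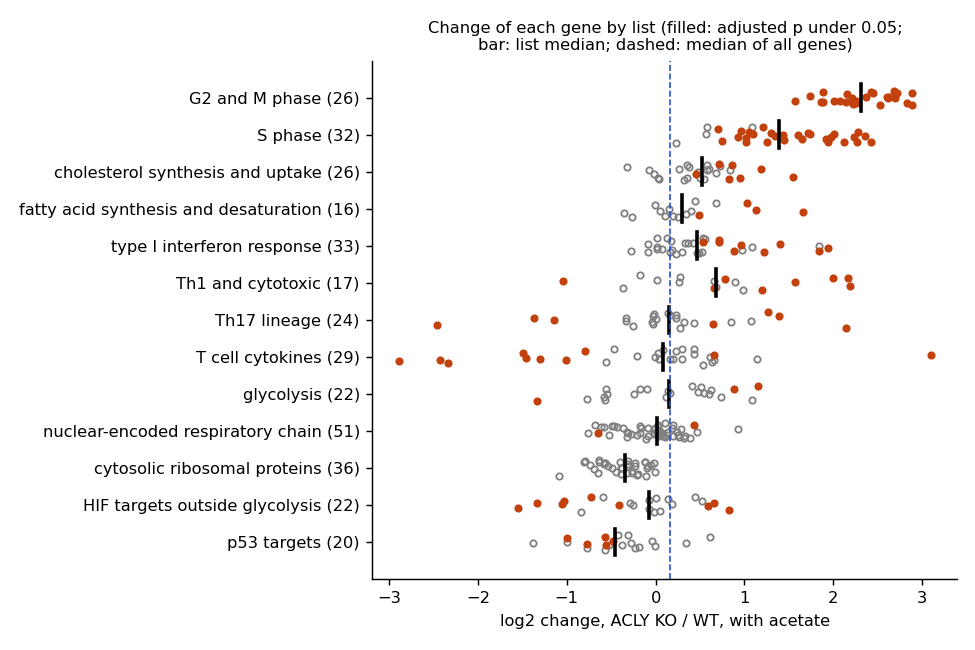
Log2 change (ACLY-deficient over wild-type, both with acetate, log2(TPM + 1) scale) of every tested gene of 13 lists, 1 point per gene, filled where the limma adjusted p was under 0.05; the vertical bar is the list median and the dashed line the median of all genes, 0.16. The G2 and M phase points lie farthest right, with a median of 2.31, and p53 targets and ribosomal protein genes have medians below 0.

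In other large groups few or no genes passed. No gene of the 36 cytosolic ribosomal protein genes passed in limma (1 had an unadjusted p under 0.05, and voom called none), although 28 of 36 were lower in all 3 ACLY-deficient libraries than in all 3 wild-type ones, against 15.2% of all genes. Their list median was -0.35, and replicate 1 was the lowest library. The list medians of 51 respiratory chain and 22 glycolysis genes, 0.02 and 0.15, lay at or below the median of all genes. Of the respiratory chain genes 1 rose (Ndufa10, by 0.43 on the log2 scale) and 1 fell (Uqcrh, by 0.65), against 11.5% and 1.98% of all genes. Of the glycolysis genes 2 rose (Pdk1 by 1.15 and Pfkl by 0.88) and 1 fell (Aldoc by 1.33), and 4 fell after median-ratio scaling, against 4.46% of all genes. The calls of Ndufa10, Uqcrh and Pfkl were each lost without ACLY-deficient replicate 1 or any 1 of the wild-type libraries, and that of Pfkl also without ACLY-deficient replicate 3 (limma adjusted p = 0.052 to 0.141). No gene of the 16 of MHC class I passed in limma or in voom, with 1 at an unadjusted p under 0.05.

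Over all genes, 191 (1.34%) had a different change with and without acetate, 111 (0.78%) with a higher and 80 (0.562%) with a lower change when acetate was present. The total went up to 386 without untreated ACLY-deficient replicate 1. It lay at 93 to 126 without 8 of the other libraries taken singly, namely any of the 3 untreated wild-type ones, any of the 3 acetate-treated wild-type ones, and acetate-treated ACLY-deficient replicate 2 or 3. Of the 111, 73 fell with ACLY loss in untreated cells, and 72 of these 73 had a smaller difference with acetate. Of the 80, 75 rose in untreated cells, and all 75 had a smaller difference with acetate. Over all genes 12.7% rose and 6.38% fell in untreated cells, whose libraries enter both tests. The smaller differences are nearly fixed by the choice of genes. A gene that rose untreated and whose change was lower with acetate has a smaller difference unless it falls by more than it rose. The same holds for the 73 with directions exchanged. The calls in the 2 conditions overlapped in part: 974 genes rose in both, 59.3% of the 1643 with acetate and 53.9% of the 1807 without, and 185 fell in both, 65.6% of the 282 with and 20.4% of the 908 (6.38% of all genes) without.

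Il9 rose in both conditions but less with acetate, by 3.10 against 5.62 on the log2 scale (difference -2.52, limma adjusted p = 0.00271). Il10 was at 39.0 to 42.1 TPM in untreated wild-type and 123 to 162 TPM in untreated ACLY-deficient libraries, where it rose, and its change differed by -2.35 (limma adjusted p = 0.00441). The chemokine receptor gene Ccr6 and the Th1 signalling factor gene Stat4 fell in untreated ACLY-deficient cells, by 1.15 and 1.16 on the log2 scale. With acetate Ccr6 was at 85.9 to 93.5 TPM in wild-type and 112 to 135 TPM in ACLY-deficient libraries (limma adjusted p = 0.135), and its change differed by 1.58 (limma adjusted p = 0.00711). Stat4 with acetate was at 25.5 to 28.8 TPM against 42.8 to 54.7 TPM, a call (limma adjusted p = 0.0319) that was lost without any 1 of the 6 libraries (0.0538 to 0.140). Serpinf1, encoding a secreted serpin, fell from 48.9 to 67.9 TPM to 1.24 to 2.86 TPM without acetate and from 59.5 to 66.8 TPM to 14.8 to 21.8 TPM with acetate (difference 2.41, limma adjusted p = 0.00172). Foxs1, a forkhead factor, was a gene that rose with acetate, from 1.15, 1.22 and 2.50 TPM to 9.82, 9.69 and 11.3 TPM, but was at 0 to 1.05 TPM in all 6 untreated libraries (difference 2.12, limma adjusted p = 0.00747).

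**Figure D5:**
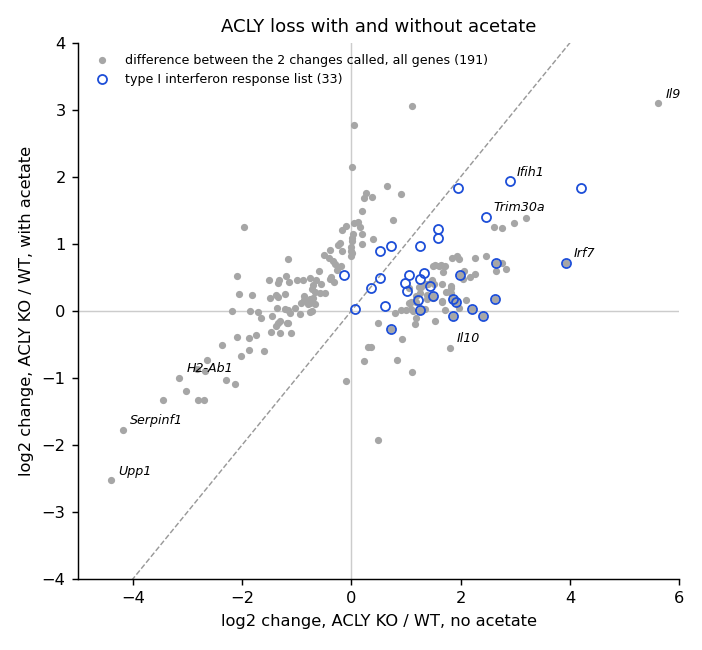
Log2 change by ACLY loss (ACLY KO over WT, log2(TPM + 1) scale) without acetate (horizontal) and with acetate (vertical) for the 191 genes whose changes differed (filled) and the 33 type I interferon response genes (open circles); the dashed line marks equal changes. Genes on the right lie mostly below the line and those on the left mostly above it, and Irf7 lies at 3.93 without and 0.72 with acetate. The untreated change enters both the horizontal axis and the choice of filled genes, so their lean is partly set by that choice.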

How the data were processed

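Gene expression was measured by stranded mRNA sequencing of Th17 cells, 75 nt single-end reads from 500 ng of RNA with integrity numbers above 7.8, per the labels' protocols. The authors deposited 1 table of TPM per gene and library, with exon lengths and coordinates. The submitters' processing notes name cutadapt, STAR 2.7.2b, featureCounts 1.6.4, DESeq2 and GRCm38.p6, with no role or order given. Whether counting used strand was not given in the sources used. Multiplying the deposited TPM by exon length gave whole multiples of 1 read for 100% of values (within 0.01), from which depth was taken. All 18 libraries, in 6 groups of 3, were fitted together on log2(TPM + 1) in limma 3.58.1 (R 4.3.3) with trended and robust variances and Benjamini-Hochberg adjustment over 14229 genes at 0.05. Contrasts were ACLY loss with acetate, ACLY loss without acetate, and their difference. Code was tested on simulated data. Fold values are ratios of mean TPM, and log2 changes understate those of low genes. Same-numbered libraries of the 2 untreated genotypes deviated together (correlations 0.567, 0.285 and 0.577), but those of the 2 acetate-treated genotypes did not all do so (0.062, 0.124 and 0.0144). Acetate-treated ACLY-deficient libraries deviated together with same-numbered untreated wild-type (0.801, 0.608 and 0.442) and untreated ACLY-deficient ones (0.548, 0.265 and 0.493). Acetate-treated wild-type libraries did so little with untreated wild-type (0.128, 0.120 and 0.130) or untreated ACLY-deficient ones (-0.027, 0.026 and -0.048). Numbers were not used to pair libraries in the main tests, so the test of the difference ignores what same-numbered libraries share.

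The gene lists, the rule for named genes and the tests were chosen with earlier results of these data known. Named genes were Acly, Slc2a3, a set of cytokine, lineage and acetate genes, up to 4 members of each list with the smallest adjusted p, and the 15 largest rises, 15 largest falls and the 10 largest differences in each direction among called genes with a group mean of at least 5 TPM and, for rises and falls, libraries that did not overlap. Further genes of the described pathways and markers were named after their values were seen, and some that the rule named are not reported here. Promoter windows and their sequences are from RefSeq (GRCm38.p6), of 300 bases around the start site, and the printed stretches lie before it. The alternatives tried were another pseudocount, other filters, median-ratio and quantile scaling, a correction for GC content and length, library weights, other sets of libraries, the replicate block and limma-voom on recovered reads.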

Additional observations from a re-analysis of the deposited data

Results flagged for a closer look

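The change with ACLY loss differed with and without acetate, by the test of the difference itself, for 191 genes. Among the genes named, those whose change was lower with acetate (log2 difference, with minus without) were Irf7 (-3.21), Il9 (-2.52), Isg20 (-2.49), Ifi44 (-2.44), Il10 (-2.35), Ch25h (-2.20), Ifit1 (-2.19), Plagl1 (-2.04), Sulf2 (-2.02), Slfn1 (-1.94), Zbp1 (-1.93), Ifnb1 (-1.93), Oasl2 (-1.79), Rsad2 (-1.68) and Xaf1 (-1.28). Those whose change was higher with acetate were Serpinf1 (2.41), H1f0 (2.32), Tgm2 (2.18), H2-Ab1 (2.15), Cxcl3 (2.12), Foxs1 (2.12), Stat4 (1.94), Upp1 (1.86), Plin2 (1.82), Ccr6 (1.58), Aldoc (1.48), Cd27 (1.41) and Cd28 (0.98). The differences of Cxcl3, Upp1, Cd28, Cd27 and Aldoc did not pass when 7, 5, 3, 7 and 9 of the 12 libraries, respectively, were left out one at a time (largest limma adjusted p 0.0691, 0.0775, 0.0658, 0.0735 and 0.123). Ch25h, encoding cholesterol 25-hydroxylase and itself inducible by interferon, averaged 6.99 TPM in untreated ACLY-deficient cells and 0.649 to 1.02 TPM with acetate. Ch25h, Ifnb1, Ifit1, Ifi44, Rsad2, Oasl2 and Xaf1 were not tested with at least 5 TPM asked in at least 3 libraries. Part of the differences of these genes and of Irf7 may be set by the filter, as described above. Tgm2 and H1f0, a transglutaminase and a linker histone, fell without acetate (wild-type and ACLY-deficient means of 27.1 and 5.64 TPM for Tgm2, and of 43.5 and 10.1 TPM for H1f0). With acetate both overlapped between genotypes, ACLY-deficient libraries being at 41.4 to 63.4 TPM for Tgm2 and 32.1 to 56.8 TPM for H1f0. Groups of 3 are too small for the check on single outlying libraries.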

How the results depend on the processing

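For ACLY loss with acetate, the count of 1925 became 3459 with the 2 groups fitted alone, 5376 without 5 libraries that stood apart, 692 when a log2 change of 1 was also asked, and 1120 to 1758 with 1 library left out. For the difference between the changes, 191 became 56 with the groups compared fitted alone, 1022 without the 5 libraries, 94 among genes of at least 5 TPM, 116 with limma-voom on recovered reads, and 93 to 386 with 1 library left out. Without acetate, 2715 became 342, 7068 and, with 1 library left out, 1778 to 3606. Library weights gave 10020, 4007 and 8546, but their estimate stopped before convergence. The causes were not tested. With the replicate block the counts were 2322, 205 and 3292, and Ifng, Cdkn1a and Isg15 also passed with acetate (limma adjusted p = 0.0136, 0.0247 and 0.0158). Of 101 named genes called with acetate, 77 kept their call in every alternative, and of 28 named differences 14 did; none reversed. With 3 libraries a group, differences of low genes (1 read was 0.0342 to 0.058 TPM for 2000 exonic bases) were often not detectable.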
